A study of Mus musculus with 10 samples.

Results

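Mgmt and 6 other genes that repair alkylated DNA (Alkbh2, Alkbh3, Mpg, Apex1, Xrcc1 and Parp1) were followed in mouse back skin after a dose of cyclophosphamide. The genes were found by their symbols, and all 7 had a row among the 24331 genes used from the deposited table. They were chosen by repair role with their FPKM at all 5 times, and the differences of those from 0h, already known, so these values are given as a description. Skin came from wild type male C57BL/6 mice aged 7 to 8 weeks, whose back hair had been removed with wax so that the follicles entered their growth phase (anagen). Every group shares that depilation. Cyclophosphamide (150 mg/kg) was given intraperitoneally on day 9 after depilation. Skin collected ahead of the drug stands for 0h and skin collected later for 6h, 12h, 24h or 48h, and each of the 5 times has 2 libraries, 10 in all. No vehicle group was analysed here, so hours since the drug cannot be told apart from hours since depilation or from the clock hour. Whether 2 libraries of 1 time are from different animals is not stated, and p-values therefore measure only the spread between libraries, which may be technical.

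Cyclophosphamide is a prodrug whose active product, phosphoramide mustard, adds alkyl groups to DNA bases and links strands, and whose by-product acrolein also attacks DNA. Cells remove small alkyl groups in 2 broad ways. In direct reversal, the protein encoded by Mgmt moves the group from the oxygen of guanine to its own cysteine and is used up, while the dioxygenases encoded by Alkbh2 and Alkbh3 oxidise methyl groups off adenine and cytosine. In base excision repair, a glycosylase such as that of Mpg cuts out a damaged purine, the endonuclease of Apex1 nicks the empty site, and the break is held by the scaffold Xrcc1 and marked with ADP-ribose chains by Parp1 until it is filled and sealed.

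Levels are in FPKM, a fragment count scaled to transcript length and to the mapped fragments of the library, so levels of different genes are compared per length. Library sums lay between 862653 and 978550 FPKM. Absolute depth is not given by FPKM, but the most frequent ratio of low values gave a relative depth of 1 for 0h library 2, 1.42 for 0h library 3 and 1.03 to 1.22 for the others. Correlations of log2(FPKM + 1) between the libraries of a time were 0.9841 to 0.9887, and those between libraries of different times, 0.9661 to 0.9873, overlapped them. Keratinocyte markers marked the tissue as skin, with Krt5 at 1245 FPKM or more and Krt14 at 2086 FPKM or more in every library. Of 4 hepatocyte markers, Alb reached 0.498 FPKM, Apoa1 0.405 FPKM and Ttr 1.14 FPKM at most. The sum of the 4 ran from 10.1 to 43.0 FPKM over all libraries, and most of it was Cyp2e1, at 8.97 to 42.8 FPKM.

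Of the 7 genes, Mgmt and Parp1 were those past the threshold, an adjusted p under 0.05 (limma, Benjamini-Hochberg over 13625 genes). At 6h 0 of 7 were past it, where 0.044% of all genes were (0.0294% higher and 0.0147% lower). At 12h 0 of 7 were past it, where 1.08% of all genes were (0.279% higher and 0.8% lower). By limma 1 of 7 had an unadjusted p under 0.05 at each of these times, where 12.3% of all genes did at 6h and 15.8% at 12h. At 24h 2 of 7 were past it, Mgmt higher and Parp1 lower, where 3.32% of all genes were (1.37% higher and 1.94% lower). At 48h 1 of 7 was, Mgmt, which was higher, where 8.92% of all genes were (4.8% higher and 4.12% lower). Nothing is read from these counts.

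Mgmt (ENSMUSG00000054612; chromosome 7, 136894614 to 137130266 in mm10, + strand) had the widest range of the 7. In libraries 2 and 3 of each time it stood at 8.52 and 4.98 FPKM at 0h, 5.57 and 3.58 FPKM at 6h, 10.1 and 7.57 FPKM at 12h, 19.1 and 21.5 FPKM at 24h, and 33.3 and 43.8 FPKM at 48h. The libraries of 6h and 12h overlapped those of 0h, while from 12h on both libraries of each time were above both of the time before. How many of all genes did so at each step was not counted, so nothing is read from these steps. The means at 24h and 48h, 20.3 ± 1.66 and 38.6 ± 7.46 FPKM (SD, n = 2), were 3.0 and 5.71 times the 0h mean of 6.75 ± 2.50 FPKM. On the log2(FPKM + 1) scale, which understates the change of low genes, the differences from 0h began at -0.46 for 6h, then 0.37 for 12h, 1.49 for 24h and 2.38 for 48h, all with an SE of 0.25.

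**Figure D1:**
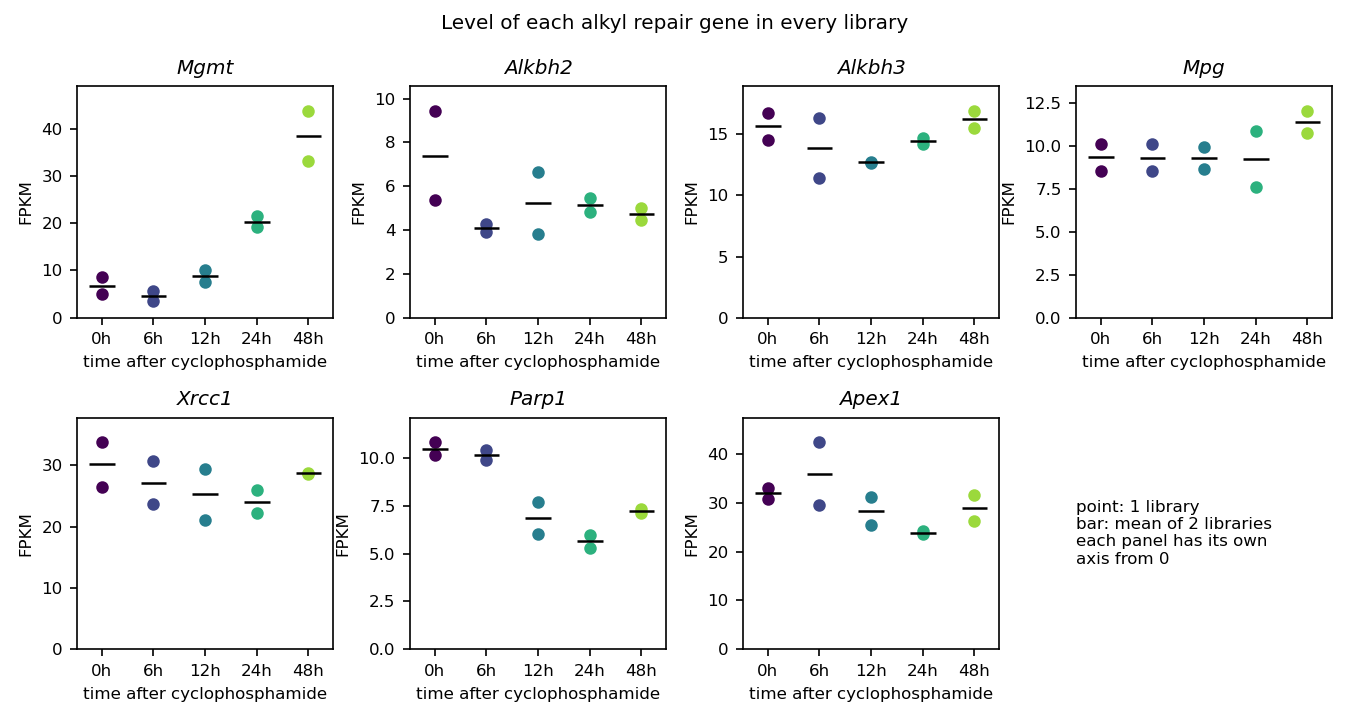
FPKM of the 7 genes (vertical axes, each from 0) in every library at 0h to 48h after cyclophosphamide (horizontal axes); a point is 1 library and a bar the mean of 2. Mgmt stands between 3.58 and 10.1 FPKM up to 12h and between 33.3 and 43.8 FPKM at 48h, while Parp1 is lowest at 24h.

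Among all genes tested, the difference of Mgmt was the 22nd highest of 13625 at 48h and the 68th highest at 24h. By level it stood above 82.5% of tested genes at 48h, against 41.7% at 0h. Its share of the summed FPKM of the 7 genes was 28.4% ± 5.24 at 48h, against 5.96% ± 1.65 at 0h (SD, n = 2). The sum of the other 6 genes ran from 92.9 to 101.7 FPKM at 48h, against 99.0 to 111.0 FPKM at 0h. At 24h Mgmt was not past the threshold without 0h library 3, without 24h library 3 or when low values were kept in, and its log2 difference over the 19 alternatives ran from 1.16 to 1.83. At 48h the difference ran from 2.04 to 2.71. The differences at 6h and 12h moved with the 0h libraries, being -0.13 and 0.70 when 0h library 2 was left out. With 0h library 3 left out instead they were -0.80 and 0.03.

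No exon bases of Mgmt are shared with another gene in GENCODE M21. The upstream sequence of Mgmt is shown because its transcript spanned the widest range, and that of Parp1 for contrast, because its libraries lay below both 0h libraries from 12h on. Of all genes, 32.3% lay so at 12h, 37.2% at 24h and 28% at 48h. Both are the 250 bases before the start site given by RefSeq (GRCm38.p6, the assembly of mm10), on the + strand at chr7:136894336-136894585 and chr1:180568641-180568890. Capitals mark the GC box (GGGCGG on either strand), a motif bound by Sp1.
Mgmt: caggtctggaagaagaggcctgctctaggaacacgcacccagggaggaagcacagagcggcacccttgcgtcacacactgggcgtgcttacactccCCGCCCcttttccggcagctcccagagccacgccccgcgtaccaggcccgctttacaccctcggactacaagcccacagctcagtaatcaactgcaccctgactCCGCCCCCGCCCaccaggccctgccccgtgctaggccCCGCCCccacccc
Parp1: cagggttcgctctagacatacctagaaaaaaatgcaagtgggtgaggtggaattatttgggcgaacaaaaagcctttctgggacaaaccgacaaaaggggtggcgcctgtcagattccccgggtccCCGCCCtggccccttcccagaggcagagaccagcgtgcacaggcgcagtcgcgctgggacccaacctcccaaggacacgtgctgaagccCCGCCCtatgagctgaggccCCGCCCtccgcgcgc

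The Mgmt window held 4 GC boxes and 15 CpG, and the Parp1 window 3 GC boxes and 16 CpG. Of the first windows of the 7 genes, 5 held a GC box, against 32.7% of 32851 RefSeq windows of this length. TATAAA was in 0 of the 7 windows (12.4% of all) and the p53 half-site in 0 (7.13% of all). E2F motifs, searched as TTTCCCGC, as TTTGGCGC or as TTTCGCGC, were in 0 (1.53% of all). The E box CACGTG was in the windows of Parp1 and Apex1 (6.02% of all) and CCAAT in those of Mpg, Xrcc1 and Apex1 (33.8% of all). Both strands were searched, and each motif was counted on its own, whether or not it overlapped another. These matches describe letters in a window and are not evidence of binding. RefSeq lists a further Mgmt start 18484 bases downstream of the GENCODE start, whose window held 0 GC boxes. The table has 1 row for Mgmt, so the starts cannot be told apart.

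Alkbh2 and Alkbh3, the other genes of direct reversal, spanned narrower ranges than Mgmt. Alkbh2 (chromosome 5, 114123926 to 114128218, - strand), whose enzyme acts mainly on double-stranded DNA, stood at 9.44 and 5.35 FPKM at 0h, 3.91 and 4.29 FPKM at 6h, 3.83 and 6.65 FPKM at 12h, 4.82 and 5.47 FPKM at 24h, and 5.02 and 4.46 FPKM at 48h. Only at 6h and 48h were both libraries below both 0h libraries, as were those of 16.4% and 28% of all genes, and 0h library 2 stood above all other libraries. The log2 differences were -0.68 for 6h and -0.51 for 48h (SE 0.25), but -0.32 and -0.15 when 0h library 2 was left out. With 0h library 3 left out instead they were -1.04 and -0.86. In 0h library 2 Alkbh2 was 1.76 times its level in 0h library 3, and Mgmt 1.71 times, where the median ratio of all genes was 1.15.

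Within a library, the ratio of Mgmt to Alkbh2 was 3.97 and 3.92 at 24h and 6.63 and 9.83 at 48h, against 0.903 and 0.931 at 0h. At 6h it ran from 0.835 to 1.43 and at 12h from 1.14 to 2.63. The 0h libraries thus lay closer to each other in this ratio than in either gene. Those of 6h, 12h and 48h lay further apart in it than in either gene.

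Alkbh3 (chromosome 2, 93980550 to 94010807, - strand), whose enzyme prefers single-stranded DNA and RNA, kept within a narrow range. It stood at 16.7 and 14.6 FPKM at 0h, 16.4 and 11.5 FPKM at 6h, 12.8 and 12.7 FPKM at 12h, 14.2 and 14.7 FPKM at 24h, and 16.9 and 15.5 FPKM at 48h. The 12h libraries were below both 0h libraries (log2 difference -0.28, SE 0.16, or -0.17 with the libraries rescaled without hair genes), as were 32.3% of all genes, and those of the other times overlapped 0h. At 24h and at 48h both Alkbh3 libraries were above both of the time before, with a ratio of means of 1.14 at 24h and 1.1 at 48h. For these steps too the share of all genes was not counted.

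In base excision repair, Mpg (chromosome 11, 32226505 to 32232700, + strand) was flat up to 24h. It stood at 10.2 and 8.57 FPKM at 0h, 10.1 and 8.52 FPKM at 6h, 9.93 and 8.64 FPKM at 12h, 7.64 and 10.9 FPKM at 24h, and 12.1 and 10.8 FPKM at 48h. Both 48h libraries were above both 0h libraries, as were those of 27% of all genes, with a log2 difference of 0.26 (SE 0.17), which was 0.15 without 0h library 3. The sign of its differences at 12h (-0.01) and 24h (-0.03) turned under each rescaling of the libraries, and at 6h (-0.01) under rescaling without hair genes.

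Apex1 (chromosome 14, 50924968 to 50927139, + strand), the main endonuclease of empty sites, had the highest mean of the 7 up to 12h, but its libraries overlapped those of Xrcc1 at each of these times. Its level was 30.7 and 33.1 FPKM at 0h, 42.4 and 29.6 FPKM at 6h, 31.2 and 25.4 FPKM at 12h, 23.7 and 24.2 FPKM at 24h, and 31.7 and 26.3 FPKM at 48h. Both 24h libraries were below both 0h libraries (log2 difference -0.40, SE 0.18), as were those of 37.2% of all genes, and the other times overlapped 0h.

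Xrcc1 (chromosome 7, 24546289 to 24573440, + strand), the scaffold that brings polymerase and ligase to the break, stood beside Apex1 in level. It had 33.8 and 26.5 FPKM at 0h, 23.7 and 30.7 FPKM at 6h, 29.3 and 21.1 FPKM at 12h, 25.9 and 22.2 FPKM at 24h, and 28.6 and 28.7 FPKM at 48h. The 24h libraries lay just below the lower 0h library (log2 difference -0.31, SE 0.19), where 37.2% of all genes had both 24h libraries below both 0h libraries. The difference was -0.14 without 0h library 2 and -0.47 without 0h library 3.

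Parp1 (ENSMUSG00000026496; chromosome 1, 180568924 to 180601254, + strand), which senses strand breaks, was lower at 24h and 48h, when Mgmt was higher. At 12h, when Mgmt overlapped 0h, Parp1 was lower too, and its mean rose from 24h to 48h as that of Mgmt did. It stood at 10.2 and 10.8 FPKM at 0h, 9.92 and 10.4 FPKM at 6h, 7.73 and 6.02 FPKM at 12h, 5.32 and 5.99 FPKM at 24h, and 7.36 and 7.11 FPKM at 48h. Both libraries of 12h, 24h and 48h were below both 0h libraries, as were those of 32.3%, 37.2% and 28% of all genes at these times. Both 48h libraries were above those of 24h, a step for which the share of all genes was not counted. The mean at 24h was 5.66 ± 0.475 FPKM, against 10.5 ± 0.463 FPKM at 0h (SD, n = 2). On the log2 scale this was -0.79, with -0.56 for 12h and -0.48 for 48h (SE 0.14). At 24h Parp1 was not past the threshold when 0h library 2, 0h library 3, 24h library 2 or 24h library 3 was left out, or in a fit of 2 times alone, with differences over the 19 alternatives from -0.88 to -0.70. At 48h quantile normalization and median-of-ratios scaling each put it past the threshold.

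**Figure D2:**
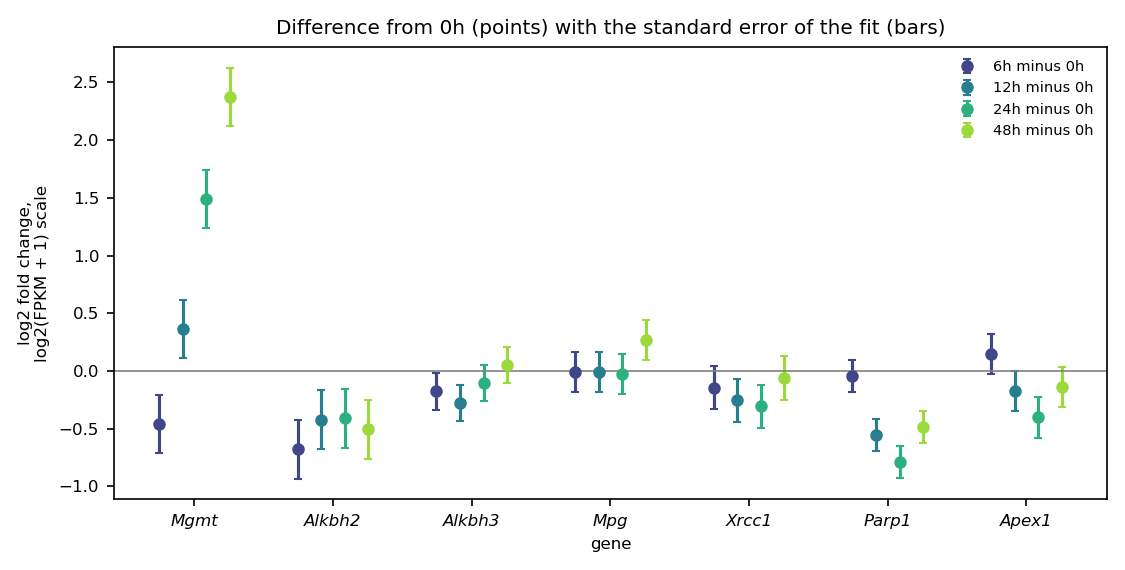
Difference of each later time from 0h on the log2(FPKM + 1) scale (vertical axis) for the 7 genes (horizontal axis); points are the fitted differences and bars their SE. Mgmt reaches 1.49 at 24h and 2.38 at 48h, and Parp1 is at -0.79 at 24h.

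At 24h the libraries of 3 members, Xrcc1, Parp1 and Apex1, lay below both 0h libraries, as did those of 37.2% of all genes, and those of 1, Mgmt, lay above (15.8% of all genes). At 6h 0 of 7 lay above (23.1% of all genes), and at 12h 0 of 7 did (15.9% of all genes). From 24h to 48h, Mgmt, Alkbh3, Xrcc1, Parp1 and Apex1 had both 48h libraries above both 24h libraries, while Alkbh2 and Mpg overlapped. The share of all genes that rose in this way was not counted, so nothing is read from this step. Over the 10 libraries, which share 5 times, Parp1 and Apex1 had a Pearson correlation of 0.77 in log2(FPKM + 1), and Mgmt had 0.55 with Mpg, 0.47 with Alkbh3, -0.004 with Xrcc1, -0.06 with Alkbh2, -0.47 with Apex1 and -0.65 with Parp1, given as a description.

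The order of the mean levels at 0h was Apex1, Xrcc1, Alkbh3, Parp1, Mpg, Alkbh2 and Mgmt. The libraries of Apex1 and Xrcc1, of Mpg and Alkbh2, and of Alkbh2 and Mgmt overlapped, and the other neighbours were separate. At 48h the order was Mgmt, Apex1, Xrcc1, Alkbh3, Mpg, Parp1 and Alkbh2, and only Apex1 and Xrcc1 overlapped. At 24h both Mgmt libraries were below those of Xrcc1 and Apex1 and above those of Alkbh3.

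Whether counting used strand is not given in the sources used here, and 5 of the 7 members share exon bases with another gene in GENCODE M21. Apex1 shares 877 of its 1422 exon bases with Pip4p1 (row Tmem55b) on the other strand, which was at 26.5 ± 0.110 FPKM at 24h, against 31.3 ± 1.93 FPKM at 0h (SD, n = 2). The values of Apex1 are therefore uncertain. Mpg shares 1340 of 3752 with Nprl3 on the other strand, at 10.7 ± 0.625 FPKM at 48h and 8.94 ± 1.10 FPKM at 0h. Alkbh2 shares 329 of 1115 with Usp30 on the other strand, at 6.93 ± 0.254 FPKM at 6h and 5.33 ± 0.992 FPKM at 0h. Both are uncertain in the same way. Alkbh3 shares 172 of 3159 with Gm27027 and 85 with its antisense gene Alkbh3os1, and Parp1 shares 7 of 5293 with Mir6904.

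Other repair genes were read from lists of 68 genes in 6 groups, all of them tested. The lists are broader than alkyl damage repair, with glycosylases of uracil and of oxidised bases and nucleotide excision repair among them. Of the 68, 0 were past the threshold at 6h and 12h (limma), 1 was lower at 24h and 2 were lower at 48h, and 0 were higher at any time. At an unadjusted p under 0.05 there were 6 of 68 (8.82%) at 6h, where 12.3% of all genes were, and 9 of 68 (13.2%) at 12h, where 15.8% were. Past the threshold, the lower genes are 1.47% at 24h and 2.94% at 48h, where 1.94% and 4.12% of all genes were lower. The median log2 difference of the 68 was 0.07 for 6h (all genes 0.04), -0.09 for 12h (all genes -0.07), -0.18 for 24h (all genes -0.10) and -0.04 for 48h (all genes -0.01). At 48h the median of the 68 turned to 0.05 with the libraries rescaled without hair genes, where that of all genes was 0.07.

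Ung, the glycosylase that removes uracil from DNA, had 4.57 and 7.89 FPKM at 24h, against 13.4 and 11.9 FPKM at 0h. It fell to 6.23 ± 2.35 FPKM at 24h, against 12.7 ± 1.05 FPKM at 0h (SD, n = 2; log2 fold change -0.96, SE 0.22, limma adjusted p = 0.0473). At 48h it was at 13.5 and 11.5 FPKM, overlapping 0h. The call held under 4 of 19 alternatives. It ended under each rescaling, with a pseudocount of 0.1, low values kept in, 2 times alone or no intensity trend, and without 0h library 2, 0h library 3, 6h library 2, 6h library 3, 12h library 2, 24h library 2, 48h library 2 or 48h library 3. The sign was the same in all 19.

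Neil1, a glycosylase of oxidised bases, and Polb, the polymerase that fills the gap of base excision repair, were lower at 48h. Neil1 had 4.64 and 4.22 FPKM at 48h, against 7.19 and 7.72 FPKM at 0h (log2 fold change -0.64, SE 0.15, limma adjusted p = 0.0257). Polb had 38.3 and 43.8 FPKM at 48h, against 58.0 and 62.0 FPKM at 0h (log2 fold change -0.54, SE 0.11, limma adjusted p = 0.0152). Neither group of libraries overlapped 0h. Both calls ended without 0h library 2, 0h library 3 or 48h library 2, and that of Neil1 also without 48h library 3, with low values kept in, or after rescaling without hair genes. Polb had 52.4 and 53.2 FPKM at 24h, above both 48h libraries. Neil1, which was past the threshold at 24h without 6h library 2 or 6h library 3 (limma adjusted p = 0.0470 and 0.0476), had 4.64 and 5.01 FPKM at 24h, with its lower 24h library beside its upper 48h one.

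By group, 0 of 11 genes of the damage reversal list were past the threshold at any time. That list takes in relatives and partners of the reversal enzymes, not all of which reverse DNA damage. Of the genes of ADP-ribose signalling 0 of 7 were past it at any time, as were 0 of 8 mismatch repair genes and 0 of 20 nucleotide excision repair genes. Of the 10 glycosylases 1 was lower at 24h (Ung) and 1 at 48h (Neil1). Mismatch repair, which acts on the mispairs that alkylated guanine makes, had a median log2 difference of -0.19 at 24h (all genes -0.10) and -0.03 at 48h (all genes -0.01). At 48h it was 0.05 with the libraries rescaled without hair genes (all genes 0.07). The damage reversal list, with the other AlkB homologues and the Ascc helicase complex that works with the Alkbh3 enzyme, ran from -0.42 to 0.07 at 24h and from -0.34 to 0.04 at 48h. Both 24h libraries were below both 0h libraries for 36 of the 68 genes (52.9%), against 37.2% of all genes. After median-of-ratios scaling it was 35.3% of the 68 and 25.4% of all genes, after quantile normalization 36.8% and 28.5%, and after rescaling without hair genes 35.3% and 27%. Of the 12 genes of empty-site processing, gap filling and ligation it was 10 as deposited, 7 after median-of-ratios scaling and 6 after either of the others, with medians of -0.25, -0.15, -0.16 and -0.18. In the same order, the medians of all genes were -0.10, -0.005, -0.03 and -0.03.

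**Figure D3:**
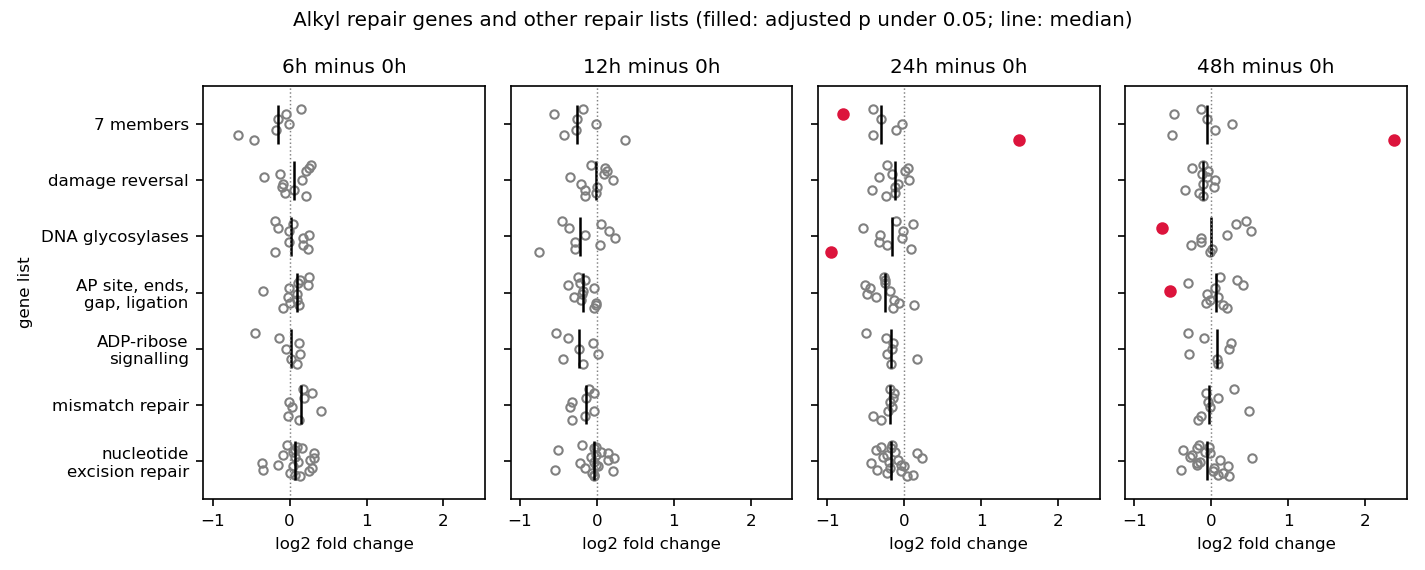
Log2 fold change against 0h (horizontal axes) of the 7 genes and of 6 lists of other repair genes (rows) at each later time (panels); each point is a gene, filled where past the threshold, and lines are medians. The 2.38 of Mgmt at 48h lies apart from the other repair genes, which run from -0.64 to 0.53 at 48h.

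In bulk skin, fewer cells of a type and less RNA per cell cannot be told apart, so the levels of cell type markers are given beside those of Mgmt and Parp1. The 5 keratinocyte markers summed to between 11085 and 12226 FPKM at 48h, against 5318 to 6093 FPKM at 0h, a ratio of means of 2.04 where that of Mgmt was 5.71. At 24h they summed to between 5563 and 8438 FPKM, overlapping 0h, where Mgmt was already 3.0 times its 0h mean. The 4 endothelial markers summed to between 38.5 and 41.0 FPKM at 48h, against 24.1 to 32.3 FPKM at 0h. Pecam1 made up most of that 48h sum, with 24.7 and 27.2 FPKM, against 13.6 and 16.4 FPKM at 0h. Kdr went the other way, with both 48h libraries below both 0h libraries (log2 difference -0.52), while Cdh5 and Tek overlapped 0h. The 8 skeletal muscle markers summed to between 4821 and 5561 FPKM at 48h, against 10076 to 11325 FPKM at 0h. Among them Myh1 went the other way, with 142 and 296 FPKM at 48h, against 81.6 and 74.2 FPKM at 0h. The 5 inner root sheath markers ran from 13031 to 15365 FPKM at 48h, against 22020 to 22199 FPKM at 0h. The part of these shifts in the course of Mgmt was not tested.

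The 11 markers of dividing cells summed to between 87.7 and 138.0 FPKM at 24h and between 223.5 and 225.1 FPKM at 48h, against 203.2 to 207.7 FPKM at 0h. Both 48h libraries were above both 0h libraries, with a ratio of means of 1.09, where Parp1 was at 0.69 of its 0h mean. No marker of this list was past the threshold at 48h. Mki67 went the other way, with 13.1 and 13.7 FPKM at 48h, against 15.8 and 19.5 FPKM at 0h. As ratios to 0h, the means of the sums were 0.61 for 6h, 0.49 for 12h and 0.55 for 24h, while Parp1 was at 0.97, 0.65 and 0.54 of its 0h mean at these times. Over the 10 libraries the correlation of Parp1 with the mean of these markers was 0.43, and those of Xrcc1 and Alkbh3 were 0.67 and 0.61, given as a description. Their part in the levels of these genes was not tested. Of the 6 macrophage markers the sum at 48h, 213.7 to 266.8 FPKM, overlapped that at 0h, 188.4 to 255.9 FPKM. Lymphocyte markers summed to between 6.83 and 6.99 FPKM at 48h, against 3.33 to 5.80 FPKM at 0h, with 3 of 5 genes under 1 FPKM in every library. Melanocyte markers summed to 791 to 828 FPKM at 48h, against 606 to 636 FPKM at 0h, while the sums of hair cortex, dermal fibroblast and adipocyte markers overlapped 0h at 48h. Within the hair cortex list, both 48h libraries of Krt35 and Krt85 were below both 0h libraries, and those of Krt34 and Krt86 above. Krt35 had 282 and 258 FPKM at 48h, against 978 and 942 FPKM at 0h. Of 4 red blood cell markers 2 were in the table, and they summed to 1.0 to 2.1 FPKM at 48h, against 52.7 to 70.8 FPKM at 0h. Hbb-bs made up most of the 0h sum, with 51.1 and 68.5 FPKM, against 0.00847 and 0.00822 FPKM at 48h. It also differed widely within a time, with 26.1 and 301 FPKM at 6h and 88.5 and 0.00593 FPKM at 24h. Alas2 had 1.03 and 2.1 FPKM at 48h, overlapping 0h, at 1.59 and 2.24 FPKM. Nothing is therefore read from this sum.

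**Figure D4:**
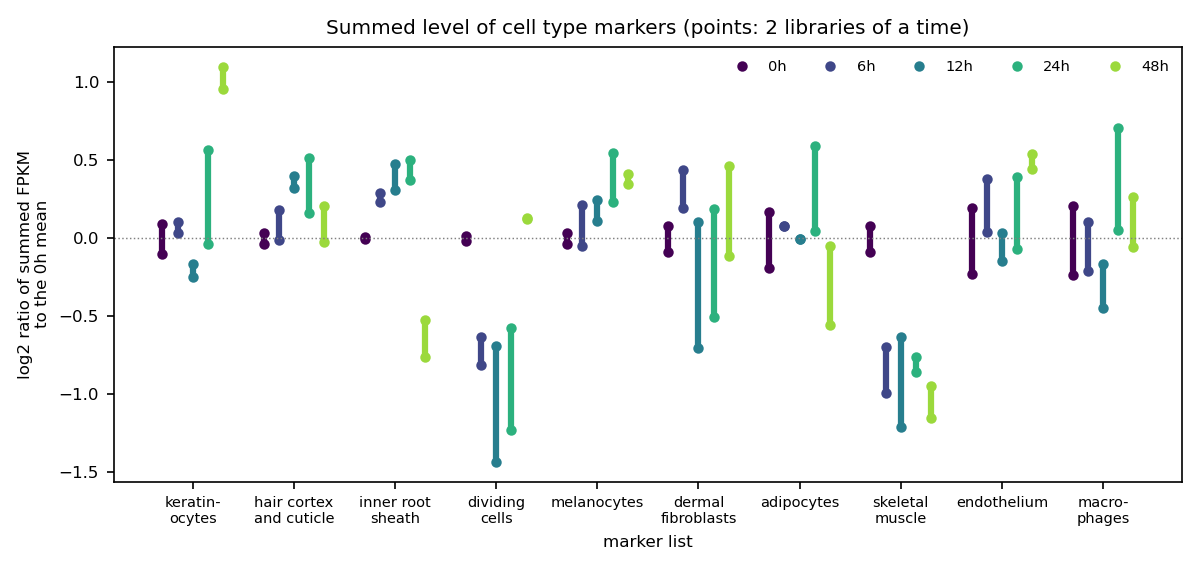
Summed FPKM of 10 marker lists (horizontal axis) as a log2 ratio to the 0h mean (vertical axis); points are the 2 libraries of each time. Keratinocyte markers are 2.04 times the 0h mean at 48h, and skeletal muscle markers 0.49 times.

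Genes with the course most like that of Mgmt were sought among 2895 genes with a mean of at least 5 FPKM and at least 0.5 (log2) between their highest and lowest time means. The 5 with the highest Pearson correlation over the 10 libraries, which share their times, were Adh1, Cox6b2, Igfbp4, Fam101a and Dusp13, with r from 0.94 to 0.95. Adh1, an alcohol dehydrogenase, averaged 18.9, 17.6, 25.2, 29.7 and 42.2 FPKM at 0h, 6h, 12h, 24h and 48h. Cox6b2, which encodes a subunit isoform of cytochrome c oxidase, averaged 14.3, 14.0, 26.0, 34 and 46.2 FPKM. Their means at 48h were 2.23 and 3.22 times those at 0h, both under the 5.71 of Mgmt.

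The 5 most negative correlations, from -0.99 to -0.96, were with Naa15, Cybrd1, Eif2s3x, Xpot and Phtf2. Cybrd1, which encodes a ferric reductase, averaged 10.9, 12.1, 10.2, 6.77 and 3.95 FPKM from 0h to 48h. Naa15, an auxiliary subunit of an N-terminal acetyltransferase, averaged 9.13 FPKM at 48h, against 12.7 FPKM at 0h.

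**Figure D5:**
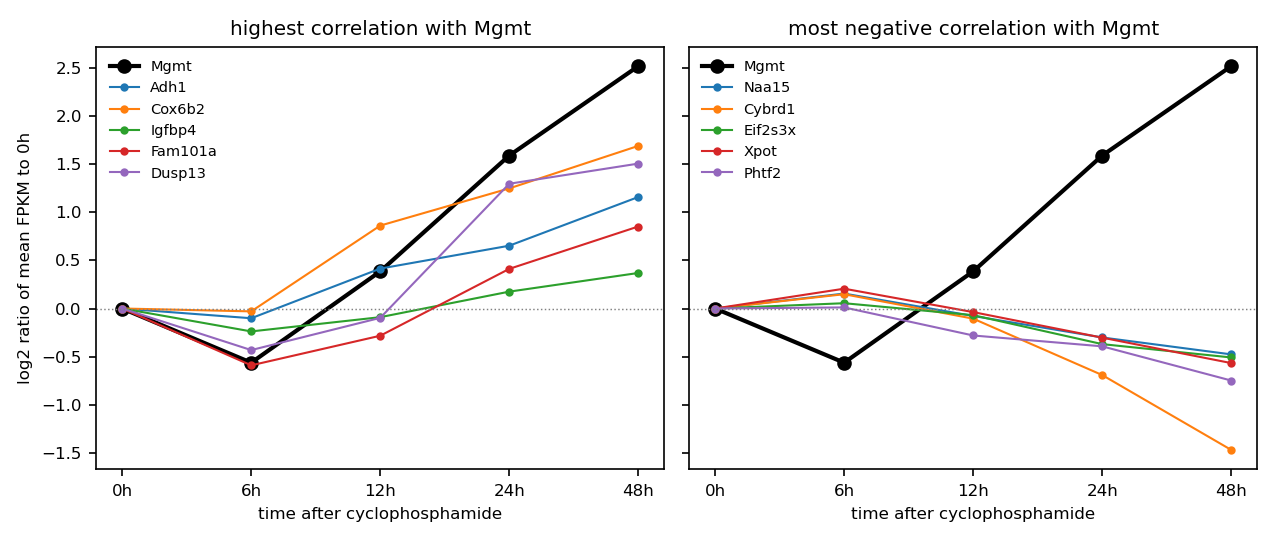
Log2 ratio of mean FPKM to 0h (vertical axes) over time (horizontal axes) for Mgmt, the 5 genes with the highest correlation (left) and the 5 with the most negative (right) over 10 libraries. Mgmt spans more than any of them, at 5.71 times its 0h mean at 48h.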

How the data were processed

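TopHat2 2.1.1 and Cufflinks 2.2.1 were named with the build mm10, without their order, per the submitters' processing notes. The authors deposited 1 table of 24358 rows and 10 columns. Its deposited values were taken as FPKM from the use of Cufflinks and from sums that differ between columns, since the header names no unit. Which annotation, filters and further scaling the authors used is not given in the sources used here. In 27 rows the symbol had become a date, and these were left out. Columns carry the numbers 2 and 3 and the labels 1 and 2, so columns were matched to times only, and libraries are called by the number in the table.

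A gene entered the test when 2 or more libraries had 1 FPKM or more (13625 genes), with limma 3.58.1 (R 4.3.3) on log2(FPKM + 1), pseudocount 1, with 1 mean per time, all 10 libraries in 1 fit, an intensity trend and 5 residual degrees of freedom. Each later time was compared with 0h, two-sided, with Benjamini-Hochberg adjustment over all genes tested. The fit was tested on simulated data. Named were the 7 members, up to 4 genes past the threshold per list and time, and the 5 genes most like and most unlike Mgmt, predicted genes left out. The members and lists were chosen with earlier results of these data known. Alternatives were another pseudocount, 2 filters, 3 scalings, a fit of 2 times alone, no trend, a replicate block and each library left out. Sequences are RefSeq windows (all 7 symbols matched), and positions are from GENCODE M21 (GRCm38, the assembly of mm10).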

Additional observations from a re-analysis of the deposited data

How the results depend on the processing

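The 7 members and the 68 other repair genes had 0 past the threshold at 6h and 12h under every alternative run. At 24h the 2 members became 1 with no filter on low values and 1 in a fit of the 2 times alone, and ranged from 0 to 2 with 1 library left out. At 48h the 1 member became 2, with Parp1 added as lower, under quantile normalization (2) and under scaling by the median of ratios (2), and was 1 with each library left out. The 1 other repair gene at 24h became 0 with a pseudocount of 0.1, no filter, median-of-ratios scaling, quantile normalization, rescaling without hair genes, the 2 times alone and no intensity trend, and ranged from 0 to 1 with 1 library left out. Without 6h library 2 or 6h library 3 that 1 gene was Neil1, not Ung. The 2 at 48h became 1 with no filter, 4 under quantile normalization and 4 under scaling by the median of ratios, both times with Ercc5 and Msh6 added as higher (log2 fold change 0.53 and 0.49 under the second of these, limma adjusted p = 0.0341 and 0.0485), and ranged from 0 to 2 with 1 library left out. Ercc5 was also added as higher, making 3, with a mean of at least 5 FPKM, stood with Polb in place of Neil1 after rescaling without hair genes (limma adjusted p = 0.0417), and was the 1 gene called without 48h library 2 (limma adjusted p = 0.0452). The causes were not tested. Of 532 log2 differences of members under the alternatives, 521 stayed within 1 SD between libraries, and 0 of those past the threshold turned. Most could not do otherwise. The filters, the fit of 2 times alone, no trend and the replicate block keep the difference as it was. So does leaving out a library of a time not compared. Leaving out a library of a compared time moves it by 1 SD at most. Only the other pseudocount and the 3 scalings could move it further, so the 521 do not measure stability.

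Labels and columns number the libraries, but nothing says that a number marks a shared animal, batch or day. Deviations of same-numbered libraries from their time's mean correlated between -0.10 (12h and 48h) and 0.22 (24h and 48h) over the 10 pairs of times, with 0.14, -0.05, 0.10 and 0.05 for 0h with 6h, 12h, 24h and 48h. With the replicate block the members past the threshold were 0, 0, 2 and 1 and the other repair genes 0, 0, 1 and 3 at 6h, 12h, 24h and 48h. All genes called were 56 higher and 43 lower at 6h, against 4 and 2 without the block, 101 and 221 at 12h, against 38 and 109, 279 and 332 at 24h, against 187 and 265, and 810 and 599 at 48h, against 654 and 561. The splits without it became 40 and 45 at 12h and 304 and 161 at 24h after median-of-ratios scaling, and 799 and 325 at 48h with rescaling without hair genes. Absolute depth is unknown, so no counting error can be given, and 2 libraries per time limit every comparison.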
